A study of Mus musculus with 16 samples.

Results

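The protein parts of the mitochondrial ribosome are described here in the ventricles of mice fed 4 diets. Members were the rows of the deposited gene count file whose symbol begins with Mrpl or Mrps followed by a number, leaving out pseudogene symbols, which gave 78 of the file's 17737 genes. Of these, 49 carry an Mrpl symbol and 29 an Mrps symbol, and no matching symbol was a pseudogene. All 78 passed the filter on low counts, against 13381 of 17737 genes (75.4%) in the file, and the smallest count of any member in any library was 34. Sorted by where the protein is known to sit, 26 belong to the small subunit, 51 to the large subunit and 1, Mrps36, to neither. Both Mrps18a and Mrps30 are counted with the large subunit despite their symbols, and Mrps36 is now regarded as a subunit of the alpha-ketoglutarate dehydrogenase complex.

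The mitochondrial ribosome, or mitoribosome, makes the few respiratory chain proteins that the mitochondrial genome encodes. Its RNAs come from that genome, while all its proteins are encoded in the nucleus, translated in the cytosol and imported. Part of them descend from bacterial ribosomal proteins and the rest were added during the evolution of mitochondria. Heart muscle depends on respiration, and inherited defects of several of these proteins, among them MRPL3, MRPL44 and MRPS22, are known to cause cardiomyopathy in people.

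Male C57BL/6 mice entered at 6 weeks of age and ate a single diet for 6 months, with 4 animals on each. Chow was the rodent diet Prolab IsoPro RMH 3000 5P75, NIA the primate diet 5L1F, and UW the primate diet TD.85387, while mNIA was the NIA formula altered so that its sucrose and fat equalled those of UW. Each of the 16 libraries held poly-A RNA from the lower part of the ventricles of 1 animal, read strand-specifically as single reads of 75 bases from RNA with an integrity number above 7.0. All animals were of the same sex, strain and age, and no genotype differed between the groups. The labels give no batch.

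Some properties of the libraries bear on what follows. Library totals ranged from 2278250 expected counts (NIA replicate 4) to 63005490 (NIA replicate 2), and the rest lay between 3143385 and 6583532. NIA replicate 4 stood apart: limma gave it the lowest quality weight (0.16), and across 13237 genes levels were lower the longer the transcript (rho -0.51, a description over genes). The same rho was 0.488 in UW replicate 4, between 0.21 and 0.362 in UW replicates 1 and 3 and mNIA replicates 1, 3 and 4, and between -0.212 and 0.142 in the others. Quality weights were also under 0.5 for chow replicate 3 (0.234), NIA replicate 1 (0.301) and mNIA replicate 2 (0.36). The short library codes in the labels do not spell the diets in the titles: libraries titled NIA are coded MNC, those titled UW NC, and those titled mNIA UC. Groups follow the titles and the diet label, so which primate formula belongs to which group rests on those. The mean of the 3 primate formulas against chow and the joint test of all diets do not depend on it. The tissue label was set against marker lists. Ventricular muscle genes (8 of 8 in the file) summed to between 53300 and 125200 CPM (counts scaled to a common library size) in every library. Atrial genes (3 of 4 in the file) summed to between 65.4 and 226. The summed markers of fat (3 of 5) were at most 0.67 CPM, and those of lung (2 of 4) at most 2.10 CPM. Other lists were not near 0: erythrocyte markers (6 of 6) ran from 1169 to 7280 CPM and skeletal muscle markers (5 of 6) from 1313 to 2323. Of the skeletal muscle list, Actn3, Tnnt3 and Myh1 were at 0 in at least 1 library and Myh4 was not in the file. The list also holds Mylpf and Ckm, and its sum alone does not show skeletal muscle in the tissue. Because the tissue was taken whole, fewer cells of a type and less RNA per cell cannot be told apart.

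The members lay on 17 chromosomes, and many share a start region with a gene on the opposite strand. Such a partner starting within 1000 bases was found for 31 of 78 members (39.7%), against 2693 of the file's 17737 genes (15.2%). In 1 case the partner is itself a member: Mrpl46, of the large subunit, and Mrps11, of the small subunit, begin 41 bases apart on chromosome 7 and are read away from each other. Some of the other partners also act in mitochondria. Mrps12 begins 146 bases from Sars2, a mitochondrial tRNA synthetase, and Mrps27 107 bases from Ptcd2. Mrpl47 begins 307 bases from Ndufb5, a subunit of respiratory complex I. These are picked examples beside partners such as Hira, Eme1 and Zfp189, and the share of mitochondrial genes among partners was not counted. RefSeq promoters of the build GRCm38.p6, each 250 bases before to 50 after a start, were found for 69 of the 78 members (75 promoters). They were searched on both strands for 4 letter patterns of factors known to act on nuclear genes of mitochondria or on many promoters. The NRF1 pattern GCGCANGCG was in 21.3% of member promoters and 10.6% of the 16961 promoters of genes in the file, the GABPA (NRF2) pattern CCGGAAG in 34.7% and 14.3%, and the YY1 pattern AAGATGGCG in 10.7% and 2.30%. The SP1 pattern GGGCGG was in 52.0% and 55.4%. The comparison shares, for start regions and patterns alike, take in file genes that failed the filter on low counts. All 78 members passed that filter, and shares over the tested genes alone were not computed. A match is a description of letters, not a binding site. No 2 of the 4 patterns contain each other.

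The promoters of 3 members show these patterns. Mrps21 and Mrpl42 had the highest levels per length of the members, and Mrps11 shares its start region with Mrpl46. Each is written 5′ to 3′ on the gene's own strand, and capitals mark every match to the patterns: in Mrps21 (chr3:95871465-95871764, minus strand) NRF1 then GABPA, in Mrpl42 (chr10:95501900-95502199, minus strand) SP1 then YY1, and in Mrps11 (chr7:78782881-78783180, plus strand) YY1 then SP1.
Mrps21: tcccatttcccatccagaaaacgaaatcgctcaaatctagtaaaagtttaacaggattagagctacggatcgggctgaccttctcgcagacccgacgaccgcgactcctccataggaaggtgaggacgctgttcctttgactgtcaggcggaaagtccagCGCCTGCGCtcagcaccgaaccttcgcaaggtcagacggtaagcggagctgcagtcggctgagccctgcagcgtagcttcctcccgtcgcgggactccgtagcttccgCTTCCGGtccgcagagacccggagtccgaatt
Mrpl42: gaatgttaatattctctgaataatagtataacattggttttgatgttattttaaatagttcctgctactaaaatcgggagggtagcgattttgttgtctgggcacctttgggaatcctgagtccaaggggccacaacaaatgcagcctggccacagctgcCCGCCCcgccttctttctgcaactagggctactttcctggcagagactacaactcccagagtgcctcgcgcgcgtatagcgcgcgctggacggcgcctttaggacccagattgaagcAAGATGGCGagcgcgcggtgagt
Mrps11: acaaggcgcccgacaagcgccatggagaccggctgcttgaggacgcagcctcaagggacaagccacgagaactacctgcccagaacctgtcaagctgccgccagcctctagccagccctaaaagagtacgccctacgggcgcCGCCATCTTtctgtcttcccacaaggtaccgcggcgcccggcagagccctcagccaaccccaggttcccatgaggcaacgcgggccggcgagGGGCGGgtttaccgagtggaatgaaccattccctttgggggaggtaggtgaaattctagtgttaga

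The 78 transcripts were not equally abundant. Expressed as CPM per kb of transcript, the mean over 16 libraries ran from 6.92 for Mrpl47 to 517 for Mrpl42, a 74.7-fold range, with a median of 40.2 and quartiles of 24.3 and 68.8. Nevertheless 65 of 78 members lay within 3-fold of the median. The median was 44.4 CPM per kb over the large subunit and 31.8 over the small subunit.

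The highest members by this measure were Mrpl42 (517 CPM per kb), a large-subunit protein without a bacterial counterpart, Mrps21 (286.7), the mitochondrial form of a small bacterial small-subunit protein, and the bacterial-type large-subunit proteins Mrpl30 (244) and Mrpl33 (155). The lowest were Mrpl47 (6.92), Mrps26 (6.97), Mrpl57 (7.22) and Mrpl19 (10.6). With the shortest annotated protein-coding transcript in place of the median length, a measure added after seeing the data, ranks correlated with the first ones at rho 0.92 over 78 genes, and 3 of the 4 highest and 4 of the 4 lowest members kept those places. The order of members was nearly alike in the diets, with rho between 0.96 and 1.00 for pairs of diets over 78 genes that share their libraries' depth and length values.

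**Figure D1:**
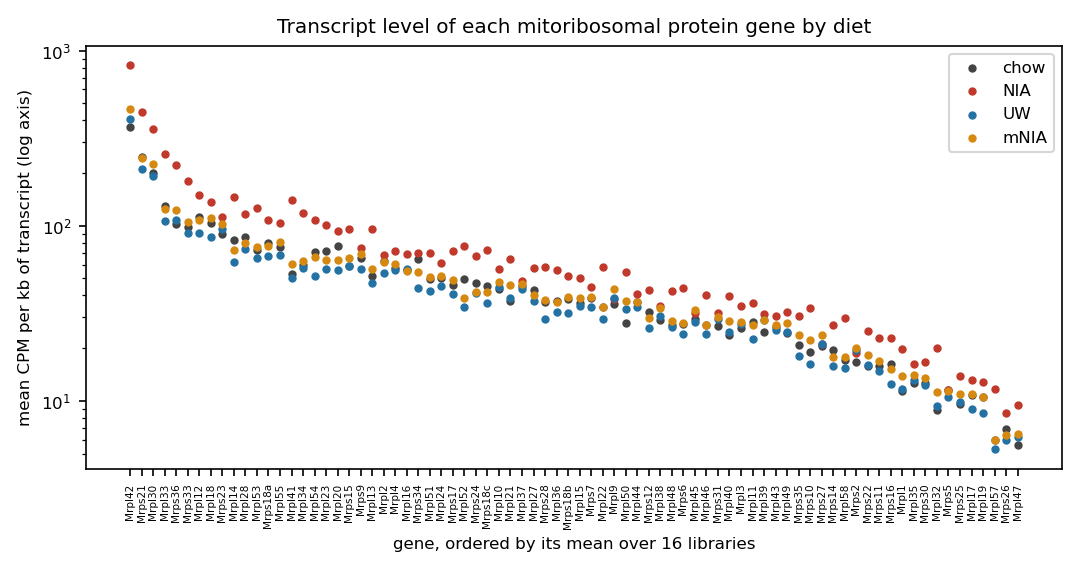
Mean level of each of the 78 genes in each diet, in CPM per kb of transcript on a log axis, with genes ordered by their mean over 16 libraries and 1 point per diet (mean of 4 libraries). Mrpl42 leads at 517 and Mrpl47 is last at 6.92, and the NIA points lie above the other diets for most genes.

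To follow the members over libraries, each gene's log2 CPM was set against its own mean over 16 libraries, and the median over the 78 genes was taken as the level of the group. This level was 0.02, 0.01, -0.29 and -0.07 in chow replicates 1 to 4. It was 0.05, -0.11, 0.15 and 1.24 in NIA, -0.41, 0.00, -0.21 and -0.23 in UW, and -0.03, 0.07, -0.03 and -0.11 in mNIA. A single library, NIA replicate 4, was more than 2-fold above the members' own means. All the other libraries lay within a narrow band around 0, with chow replicate 3 and UW replicate 1 lowest.

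By diet the level was highest in NIA (0.33 ± 0.61, SD, n = 4), followed by mNIA (-0.02 ± 0.08), chow (-0.08 ± 0.14) and UW (-0.21 ± 0.17). No pair of neighbours in this order was separated beyond its spread, and NIA replicates 1 and 2, at 0.05 and -0.11, lay among or next to the chow libraries. In NIA replicate 4 the small subunit stood at 1.23 and the large subunit at 1.24, and in UW replicate 1 they stood at -0.36 and -0.41. They lay further apart in chow replicate 3, at -0.16 and -0.36, and in NIA replicate 3, at 0.265 and 0.15, and the difference was not tested.

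**Figure D2:**
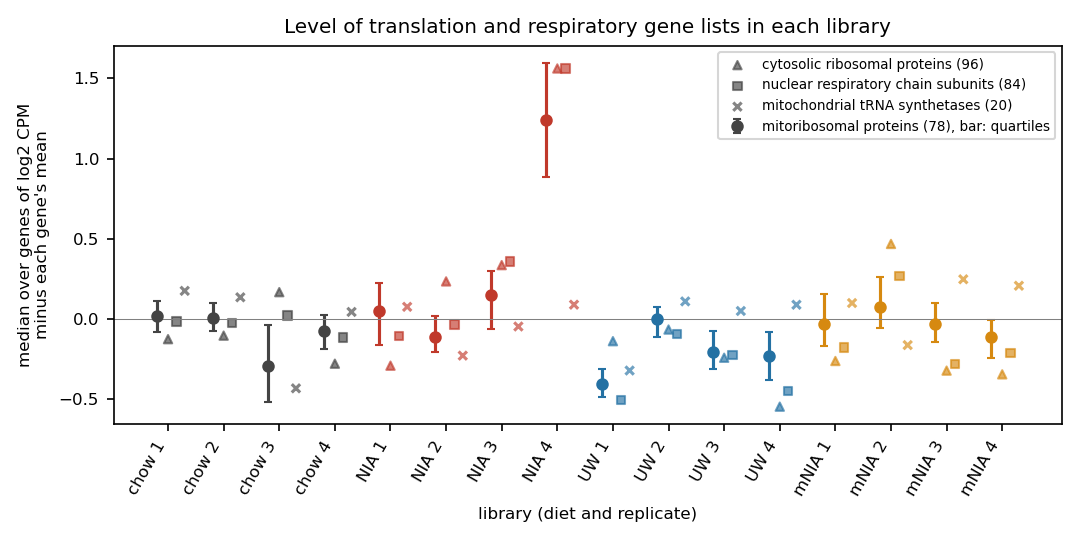
Level of the 78 mitoribosomal genes in each of the 16 libraries (circles, bars from the lower to the upper quartile over genes), as the median of log2 CPM minus each gene's mean, beside 96 cytosolic ribosomal protein genes, 84 nuclear respiratory chain genes and 20 mitochondrial tRNA synthetase genes. NIA replicate 4 stands at 1.24 for the mitoribosomal genes and at 1.56 for the cytosolic ribosomal and respiratory chain genes, against 0.09 for the synthetases.

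The height of NIA replicate 4 held for almost every member. It was the highest of the 16 libraries for 74 of 78 genes, and the 4 exceptions were Mrpl39, Mrps2 and Mrps31, highest in NIA replicate 1, and Mrps27, highest in mNIA replicate 3. Against the mean of NIA replicates 1 to 3 its CPM was 2.30-fold in the median, from 0.929-fold for Mrps2 to 4.99-fold for Mrpl41, and more than 2-fold for 53 members. The lowest library was chow replicate 3 for 26 members, UW replicate 1 for 25 and UW replicate 4 for 11. Across 16 libraries the median SD of log2 CPM was 0.42, and without NIA replicate 4 it was 0.24. As a plain share of the library's counts, members made up 0.727% in NIA replicate 4, between 0.371% (NIA replicate 1) and 0.532% (NIA replicate 3) elsewhere, and its scaling factor of 0.618, by which the CPM are divided, was the lowest of all libraries.

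**Figure D3:**
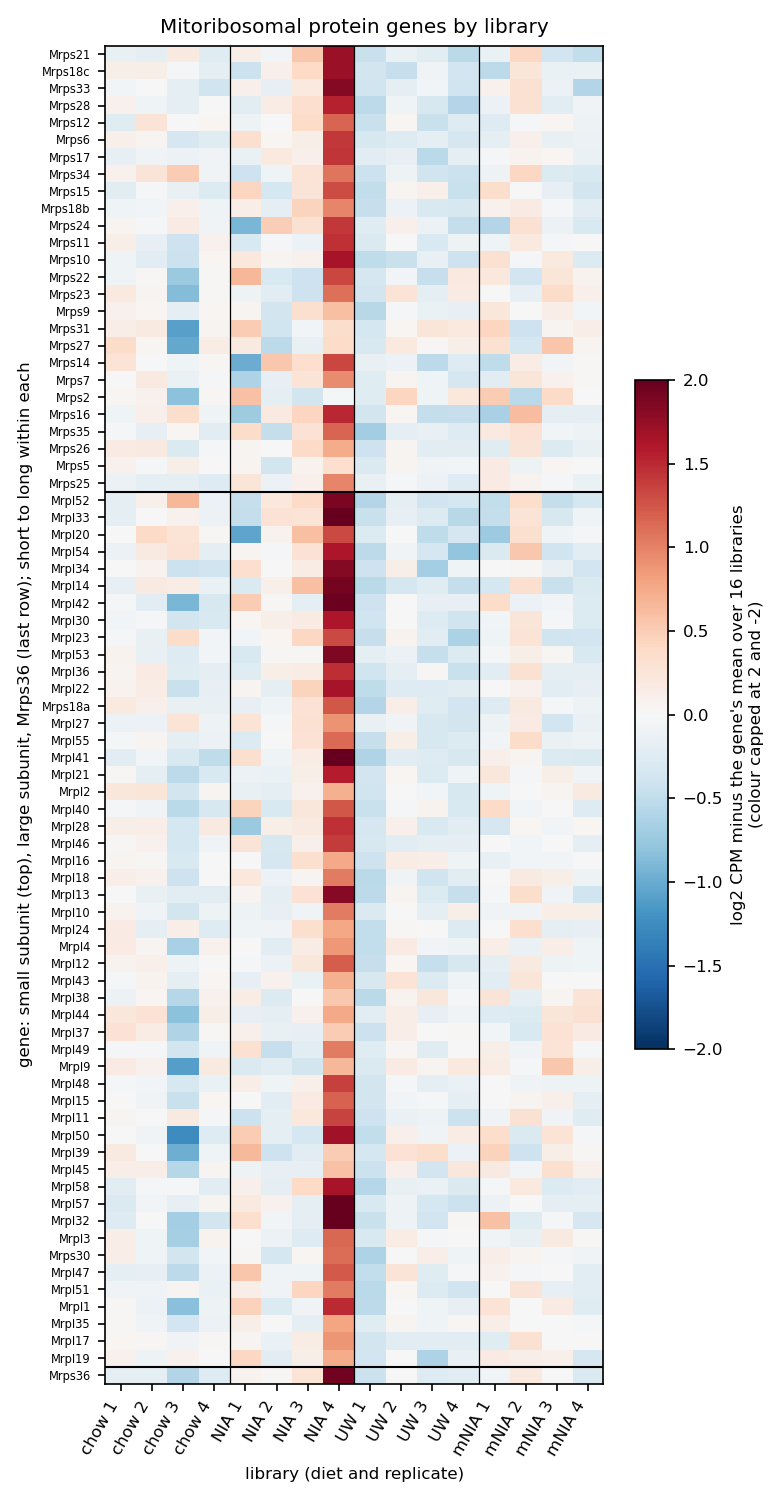
Each of the 78 genes (rows, small subunit on top, then large subunit, then Mrps36, short to long transcripts within each) in the 16 libraries (columns), coloured by log2 CPM minus the gene's mean. The column of NIA replicate 4 is red in nearly all rows, and chow replicate 3 is blue for a subset that includes Mrpl50, Mrpl9, Mrps31 and Mrps27.

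Transcript length moved with this height. The members are short, with a median transcript of 1224.5 bases (440.5 to 6073) against 2705.5 over all tested genes with a length. In NIA replicate 4 the 30 members under 1 kb stood at 1.55, the 28 members of 1 to 2 kb at 1.04 and the 20 members over 2 kb at 1.07. All tested genes of those lengths stood at 1.12, 0.35 and -0.45. Members were thus above genes of their own length class in each class, most of all over 2 kb, and no test was made of that difference. Over the members the rho of level in NIA replicate 4 with length was -0.52. The part of length, and of this library's RNA, in the diet comparisons was not tested beyond the fits without the library or with the length trend removed.

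**Figure D4:**
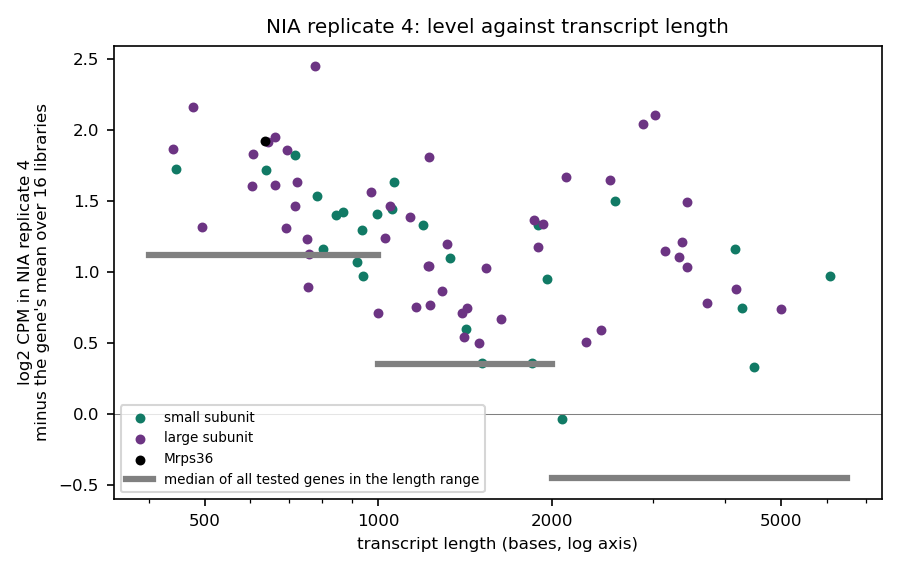
Level of each of the 78 genes in NIA replicate 4 (log2 CPM minus the gene's mean over 16 libraries) against its transcript length in bases on a log axis, coloured by subunit, with grey bars for the median of all tested genes under 1 kb (1.12), from 1 to 2 kb (0.35) and over 2 kb (-0.45). Most members lie above the grey bar of their length.

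No member passed the adjusted threshold of 0.05 in any of the 8 tests by edgeR's quasi-likelihood method with Benjamini-Hochberg adjustment over 13381 genes. In the same tests 0% of all genes passed, except for mNIA against chow, where 1 gene that is no member did (0.00747%). The smallest adjusted p of a member was 0.163 (Mrpl14, UW against NIA). In the following comparisons, NIA, UW and mNIA against chow share the 4 chow libraries, and both comparisons with NIA share the 4 NIA libraries, so they are not independent. Direction and size are given from the fit of all 16 libraries and then without NIA replicate 4.

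NIA against chow asks how the hearts on the first primate formula differed from those on rodent diet. The fitted value was higher in NIA for 77 of 78 members, with a median log2 fold change of 0.45 (-0.02 to 1.36), while the median over all genes was -0.01. Unadjusted p was under 0.05 for 27 members, all higher in NIA, against 6.52% of all genes higher (8.70% in both directions). Genes under 1 kb of any function gave 291 of 1122 higher, and members under 1 kb 16 of 30. The 4 NIA libraries were all above the 4 chow libraries for 5 members (1.32% of all genes): Mrpl30, Mrpl47, Mrps10, Mrps25 and Mrps36. Without NIA replicate 4 the median was 0.09, 58 of 78 members were higher and 2 had an unadjusted p under 0.05 (3.73% of all genes). There were 42 such members without NIA replicate 1 (10.7% of all genes) and 42 without NIA replicate 2 (13.6%). With the length trend removed the median was 0.20, and 14 members had an unadjusted p under 0.05 (7.71% of all genes). DESeq2 called 2 members higher at 16 libraries, Mrpl42 (1.26, adjusted p = 0.0396) and Mrps36 (1.19, adjusted p = 0.0345), against 0.949% of all genes. The limma-voom fit with quality weights gave a median of 0.09 and called none (0.209% of all genes).

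Mrps36 measured 70.3, 69.7, 53.0 and 66.9 CPM in chow replicates 1 to 4, 84.3, 81.2, 96.2 and 304 in NIA, 59.5, 80.7, 66.6 and 68.1 in UW and 77.3, 91.2, 79.5 and 65.8 in mNIA. Every NIA animal was above every chow animal, by little in replicates 1 to 3 and by far in replicate 4. The means were 141 ± 108 CPM in NIA and 64.96 ± 8.11 in chow (SD, n = 4), a log2 fold change of 1.10 (SE 0.33, edgeR quasi-likelihood adjusted p = 0.383). Without NIA replicate 4 it was 0.42 (SE 0.17). The product of Mrps36 (chr13:100735940-100744660) links the subunits of alpha-ketoglutarate dehydrogenase in the citric acid cycle.

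Mrpl41 measured 42.7, 47.5, 40.2 and 35.0 CPM in chow replicates 1 to 4, 61.6, 46.8, 55.2 and 272 in NIA, 32.8, 43.0, 41.7 and 39.5 in UW and 53.3, 51.7, 41.1 and 40.6 in mNIA. NIA replicate 4 was far above all others, and NIA replicate 2 fell inside the chow range. Mrpl41 (chr2:24972470-24975099), a large-subunit protein without a bacterial counterpart, had the largest SD of log2 CPM of all members (0.70, and 0.25 without NIA replicate 4). Its log2 fold change was 1.36 in NIA against chow (SE 0.41, adjusted p = 0.383, edgeR), and 0.39 (SE 0.17) without that library. It led the joint test of all diets, with an adjusted p of 0.425.

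Mrpl42 measured 301.5, 263, 162.5 and 244 CPM in chow replicates 1 to 4, 433, 309.9, 266 and 1186 in NIA, 229.9, 305, 274 and 272 in UW and 393, 282, 295 and 253 in mNIA. The chow animals were lower on average, but chow and NIA overlapped, and NIA replicate 4 was again the highest. Mrpl42 (chr10:95480805-95501950) had means of 243 ± 58.6 CPM in chow and 549 ± 430.5 in NIA (SD, n = 4), and for the mean of the 3 formulas against chow a log2 fold change of 0.55 (SE 0.31, edgeR adjusted p = 0.938).

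Mrps5 was the steadiest member. Mrps5 measured 53.3, 48.8, 54.6 and 50.2 CPM in chow replicates 1 to 4, 52.0, 38.9, 52.5 and 63.3 in NIA, 40.9, 52.0, 47.9 and 48.4 in UW and 56.4, 46.6, 51.4 and 50.4 in mNIA. All diets overlapped, and the SD of log2 CPM was 0.17. Mrps5 (chr2:127587426-127603987) is the member whose silencing lengthens the life of worms, and it sits where messenger RNA enters the small subunit. Its log2 fold change in NIA against chow was -0.02 (SE 0.17, edgeR adjusted p = 0.991), with a 95% interval from -0.37 to 0.34, and the sign turned to 0.03 with RLE scaling and to 0.20 with the length trend removed. The next steadiest were Mrpl35 (SD 0.25) and Mrpl43 (0.25), and the most variable after Mrpl41 were Mrpl33 (0.64) and Mrpl32 (0.64).

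**Figure D5:**
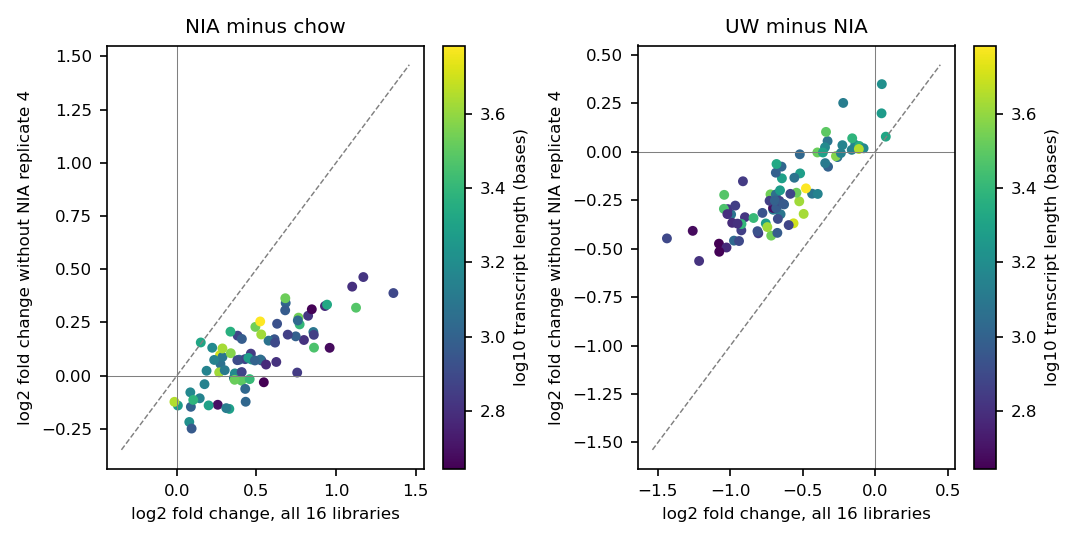
Log2 fold change of each of the 78 genes in NIA minus chow (left) and UW minus NIA (right), fitted with all 16 libraries (x axis) and without NIA replicate 4 (y axis), coloured by log10 of transcript length in bases; the dashed line marks equal values. The median goes from 0.45 to 0.09 on the left and from -0.66 to -0.25 on the right.

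UW against chow gave slightly lower fitted values in UW, none past the threshold. The median log2 fold change of the members was -0.15 (-0.54 to 0.26), with 22 of 78 higher and 56 lower, beside -0.01 over all genes. No member had an unadjusted p under 0.05 (2.35% of all genes), none was called by DESeq2 or limma-voom, and leaving out NIA replicate 4, which belongs to neither group but takes part in the filter, scaling and spread, gave -0.13. With the length trend removed the median was -0.02, with 35 members higher. Unadjusted p was under 0.05 for 14 members by limma-voom (11.2% of all genes). It was under 0.05 for 15 by edgeR with the 4 low-weight libraries left out (6.56% of all genes). Without UW replicate 1 the median was -0.06, with 31 members higher, while 7 were higher without chow replicate 3 and 12 without UW replicate 2. All 4 UW libraries were below all 4 chow libraries for 7 members, against 2.48% of all genes: the large-subunit genes Mrpl11, Mrpl14, Mrpl17 and Mrpl20, and the small-subunit genes Mrps14, Mrps18b and Mrps34. Of all tested genes under 1 kb, 104 of 1122 were below chow in the same way, and of members under 1 kb 4 of 30.

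Mrps34 measured 53.9, 60.7, 72.4 and 48.8 CPM in chow replicates 1 to 4, 38.2, 47.9, 61.9 and 107 in NIA, 37.6, 47.5, 38.8 and 38.0 in UW and 47.7, 68.0, 42.0 and 41.4 in mNIA. The UW animals were all below the chow animals, and chow replicate 3 was the highest outside NIA. Mrps34 (chr17:24895120-24896274) is a small-subunit protein without a bacterial counterpart, and its mutation in mice is known to enlarge the heart. UW averaged 40.5 ± 4.69 CPM and chow 59.0 ± 10.2 (SD, n = 4), a log2 fold change of -0.54 (SE 0.26, edgeR adjusted p = 0.977), the smallest p of the members in this comparison. For mNIA against chow it was -0.25 (SE 0.26), and for the mean of the 3 formulas -0.23 (SE 0.21). Mrpl52, a short large-subunit gene, followed with -0.53 (SE 0.36) in UW, while Mrps2 (0.22, SE 0.26) and Mrpl39 (0.23, SE 0.28) led among those higher in UW, with adjusted p = 0.977 for all 3 by edgeR.

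UW against NIA compares the primate formulas. The fitted value was lower in UW for 75 of 78 members, with a median of -0.66 (-1.44 to 0.07), beside -0.00 over all genes. Unadjusted p was under 0.05 for 50 members, all lower in UW, against 8.71% of all genes lower (13.9% in both directions). The group of genes under 1 kb gave 504 of 1122 lower, and the members under 1 kb 29 of 30. All 4 UW libraries were below all 4 NIA libraries for 11 members (3.06% of all genes): Mrpl17, Mrpl22, Mrpl27, Mrpl30, Mrpl41, Mrpl54, Mrps6, Mrps10, Mrps17, Mrps21 and Mrps36. Without NIA replicate 4 the median was -0.25, 14 members were higher in UW, and 13 had an unadjusted p under 0.05 (7.84% of all genes). With the length trend removed the median was -0.22.

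Calls in this comparison depended on the tool and on the libraries. DESeq2 called 13 members, all lower in UW: Mrpl14, Mrpl22, Mrpl30, Mrpl33, Mrpl51, Mrpl54, Mrpl58, Mrps6, Mrps10, Mrps18b, Mrps21, Mrps28 and Mrps36. It called 2.8% of all genes. The limma-voom fit with quality weights called 3, namely Mrpl14, Mrpl52 and Mrps28, against 6.85% of all genes. By edgeR, leaving out NIA replicate 2 gave 4 calls (Mrpl22, Mrpl41, Mrps18b and Mrps35), against 1.61% of all genes. Leaving out all 4 libraries of low quality weight gave 9 (Mrpl14, Mrpl33, Mrpl52, Mrps14, Mrps16, Mrps18c, Mrps21, Mrps24 and Mrps28). That fit of NIA replicates 2 and 3 against 4 UW animals called 11.8% of all genes. Mrpl14 was among the calls of DESeq2, of limma-voom and of edgeR without those 4 libraries.

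Mrpl14 measured 47.0, 59.2, 58.3 and 48.0 CPM in chow replicates 1 to 4, 42.8, 56.2, 79.5 and 198 in NIA, 36.0, 41.1, 44.2 and 37.9 in UW and 41.2, 65.8, 38.7 and 42.7 in mNIA. The UW animals were all below the chow animals, NIA replicate 1 lay among the UW values, and NIA replicates 3 and 4 were above every animal of the other diets. Mrpl14 (chr17:45686349-45698496) is a bacterial-type protein on the face of the large subunit that meets the small one. In UW against NIA its log2 fold change was -1.22 (SE 0.35, edgeR adjusted p = 0.163), and -0.56 (SE 0.21, adjusted p = 0.546) without NIA replicate 4. By DESeq2 it was -1.31 (adjusted p = 0.0226) and by limma-voom -0.70 (adjusted p = 0.0407).

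Mrps21 measured 106, 102, 133 and 98.8 CPM in chow replicates 1 to 4, 127, 113, 170.2 and 388 in NIA, 86.4, 107, 101 and 80.6 in UW and 107, 156, 89.5 and 83.3 in mNIA. All UW animals were below all NIA animals, though UW replicate 2 at 107 CPM came close to NIA replicate 2 at 113. The log2 fold change of Mrps21 (chr3:95862634-95871515), whose promoter is printed above, was -1.08 in UW against NIA (SE 0.32, edgeR adjusted p = 0.178). Going the other way, Mrps2 (0.07, SE 0.27) and Mrpl9 (0.04, SE 0.28) had the highest values in UW, both near 0 and of a sign that turned under other settings.

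The other comparison with NIA, mNIA against NIA, gave a median of -0.46 (-1.19 to 0.21), with 73 of 78 members lower in mNIA, beside -0.01 over all genes. Unadjusted p was under 0.05 for 19 members, all lower, against 5.65% of all genes lower (8.91% in both directions), and no member had libraries that did not overlap (0.882% of all genes lower). Mrpl41 (-1.19, SE 0.41) and Mrpl14 (-0.97, SE 0.34) led, each with an edgeR adjusted p of 0.549, and Mrpl9 (0.21, SE 0.28) and Mrps27 (0.20, SE 0.27) were higher in mNIA. Without NIA replicate 4 the median was -0.07, with 31 members higher and 0 with an unadjusted p under 0.05 (3.8% of all genes). With the length trend removed the median was -0.13. The count of members with an unadjusted p under 0.05 was 42 without NIA replicate 1 and 41 without NIA replicate 2. It was 8 without mNIA replicate 3 and 7 without mNIA replicate 4. The shares of all genes in these 4 fits were 15.6%, 11%, 4.65% and 4.01%.

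DESeq2 called no member in mNIA against NIA, and limma-voom called Mrpl14 (-0.64, adjusted p = 0.0379) and Mrpl52 (-0.66, adjusted p = 0.0318). Of all genes the limma-voom fit called 14.8% in this comparison. Without the 4 libraries of low quality weight edgeR called 13 members in both directions, 8 lower in mNIA and 5 higher, where it called 23.1% of all genes. These were Mrpl9, Mrpl14, Mrpl33, Mrpl49, Mrpl52, Mrps2, Mrps14, Mrps16, Mrps18c, Mrps21, Mrps22, Mrps24 and Mrps27.

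In mNIA against UW, 2 formulas matched in sucrose and fat, 77 of 78 members were higher in mNIA by small amounts, with a median of 0.19 (-0.03 to 0.43), beside 0.02 over all genes, of which 7296 of 13381 were higher. None had an unadjusted p under 0.05 (0.986% of all genes), and DESeq2 and limma-voom called none. Tested genes under 1 kb had a median of 0.14, with 853 of 1122 higher. The median was 0.12 with the length trend removed, 0.11 with the 4 low-weight libraries left out, 0.16 without NIA replicate 4, and from 0.12 (without mNIA replicate 2, 69 higher) to 0.25 (without UW replicate 2, 78 higher) when libraries were left out in turn. All 4 mNIA libraries were above all 4 UW libraries for 4 members (0.770% of all genes): Mrpl22, Mrps6, Mrps17 and Mrps35.

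Mrps35 measured 90.2, 82.5, 95.8 and 79.6 CPM in chow replicates 1 to 4, 120.0, 66.8, 113 and 208 in NIA, 57.1, 81.9, 83.7 and 77.2 in UW and 106, 114, 89.5 and 86.5 in mNIA. The lowest mNIA animal, at 86.5 CPM, was just above the highest UW animal, at 83.7, while chow overlapped both. Mrps35 (chr6:147042770-147070903), a small-subunit protein without a bacterial counterpart, averaged 99.0 ± 13.1 CPM in mNIA and 75.0 ± 12.2 in UW (SD, n = 4), a log2 fold change of 0.40 (SE 0.26). Mrps10, a bacterial-type small-subunit protein, had 0.43 (SE 0.29). The 1 member lower in mNIA was Mrpl16, a bacterial-type large-subunit protein (-0.03, SE 0.21). All 3 had an edgeR adjusted p of 1.0.

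In mNIA against chow the members centred near 0, with a median of 0.06 (-0.36 to 0.41) and 54 of 78 higher, beside 0.01 over all genes. None had an unadjusted p under 0.05 (1.38% of all genes), no member's libraries were separated (0.897% higher and 1.26% lower among all genes), and DESeq2 and limma-voom called none. The sign of this median turned to -0.00 with upper-quartile scaling (38 higher) and to -0.02 without mNIA replicate 2. The sign also turned to -0.01 by limma-voom (35 higher) and to -0.07 without the 4 libraries of low quality weight (28 higher). It was 0.09 with the length trend removed, 0.00 without chow replicate 3, 0.03 without NIA replicate 1 and 0.04 without mNIA replicate 1, and it reached 0.09 without chow replicate 2 and 0.10 without chow replicate 1 or mNIA replicate 4. Mrpl50 (0.41, SE 0.37) and Mrpl38 (0.23, SE 0.22), both large-subunit proteins without a bacterial counterpart, led upwards, and Mrpl52 (-0.36, SE 0.36) downwards, each with an edgeR adjusted p of 0.983.

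Against chow the mean of the 3 primate formulas gave a median of 0.15 (-0.23 to 0.55) with 66 of 78 members higher, beside 0.00 over all genes, and no member had an unadjusted p under 0.05 (2.19% of all genes). Without NIA replicate 4 the median was 0.01 and 41 members were higher, and with the 4 low-weight libraries left out it was -0.09 with 17 higher. Leaving out chow replicate 3 gave 0.08, and limma-voom turned the sign to -0.05, with 28 higher. Mrpl42 and Mrps36 (0.48, SE 0.28) led upwards, and Mrps34 and the bacterial-type Mrpl20 (-0.15, SE 0.27) downwards, with edgeR adjusted p values of 0.938, 0.938, 0.938 and 0.948. DESeq2 and limma-voom called none. In the joint test 25 members had an unadjusted p under 0.05 against 6.88% of all genes, led by Mrpl41, Mrps36, Mrpl14, Mrps21, Mrpl33 and Mrpl34, whose adjusted p values ran from 0.425 to 0.590. Without NIA replicate 4 there were 0 (3.52% of all genes). Without UW replicates 1 or 4 there were 14 and 15 (6.04% and 5.04% of all genes). Without NIA replicates 1 or 2 there were 40 and 42 (10.5% and 8.86% of all genes). DESeq2 called none in the joint test (1.3% of all genes). The limma-voom fit called 3, Mrpl14, Mrpl52 and Mrps28 (14.8% of all genes).

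Medians of the structural classes lay close together. In NIA against chow the median log2 fold change was 0.47 over the 16 bacterial-type and 0.36 over the 10 mitochondria-specific small-subunit genes, and 0.42 over the 30 bacterial-type and 0.53 over the 21 mitochondria-specific large-subunit genes. In UW against NIA the same classes gave -0.72, -0.53, -0.65 and -0.66. Unadjusted p was under 0.05 for 8 of 26 small-subunit and 18 of 51 large-subunit genes in NIA against chow, and for 17 and 32 in UW against NIA. No difference between classes was tested.

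Several members sit at working sites of the ribosome. Mrpl12, the stalk protein that brings translation factors to the large subunit, averaged 148 ± 8.73 CPM on chow, 196 ± 94.0 on NIA, 119.5 ± 20.8 on UW and 142 ± 16.1 on mNIA (SD, n = 4). NIA replicate 4 at 335 CPM gave the width of the NIA group, whose replicates 1 to 3 averaged 149.5. Mrpl11, which forms the base of the same stalk, averaged 54.4 ± 3.46, 69.7 ± 43.1, 43.7 ± 5.29 and 52.2 ± 8.80 CPM in the same order. Mrps12, a protein of the decoding centre, averaged 25.7 ± 3.58, 34.5 ± 15.4, 21.0 ± 3.48 and 23.9 ± 2.04 CPM. Mrpl45, which lies at the tunnel exit and holds the ribosome to the inner membrane, averaged 70.8 ± 14.7, 76.8 ± 21.9, 68.1 ± 15.7 and 80.2 ± 8.59 CPM. NIA had the highest mean for Mrpl12, Mrpl11 and Mrps12, and mNIA for Mrpl45, each within the spread of the NIA libraries.

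By edgeR with all 16 libraries the members tied to human cardiomyopathy did not pass the threshold in any test, and Mrps22 was called in mNIA against NIA without the 4 libraries of low quality weight. Mrpl3 measured 96.4, 83.5, 55.8 and 92.2 CPM in chow replicates 1 to 4, 88.5, 81.3, 73.8 and 196 in NIA, 71.2, 98.2, 86.2 and 87.7 in UW and 83.8, 79.7, 99.9 and 90.02 in mNIA. Chow replicate 3 was the lowest animal and NIA replicate 4 the highest, and all diets overlapped. Mrpl44, a large-subunit protein related to ribonucleases, averaged 51.9 ± 15.5 CPM on chow, 58.2 ± 19.5 on NIA, 49.0 ± 5.15 on UW and 52.6 ± 11.3 on mNIA, and Mrps22, of the small subunit, 18.9 ± 4.26, 30.0 ± 17.6, 19.1 ± 3.92 and 21.9 ± 4.04 (SD, n = 4). In NIA against chow the log2 fold changes were 0.41 for Mrpl3 (SE 0.27), 0.14 for Mrpl44 (SE 0.25) and 0.58 for Mrps22 (SE 0.32), with edgeR adjusted p values of 0.698, 0.919 and 0.619.

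The 3 proteins related to a single bacterial small-subunit protein take different places: Mrps18c, counted here as the bacterial type, and Mrps18b sit in the small subunit and Mrps18a in the large one. Over 16 libraries Mrps18a had the highest level per length (82.8 CPM per kb), followed by Mrps18c (49.0) and Mrps18b (40.3). UW had the lowest mean of the 4 diets for each: 50.5 ± 11.0 CPM against 60.1 ± 7.22 in chow for Mrps18a, 30.0 ± 2.89 against 36.1 ± 2.42 for Mrps18b and 23.1 ± 2.86 against 28.9 ± 2.93 for Mrps18c (SD, n = 4). Most members had this direction: fitted values in UW were lower for 56 of 78 against chow, 75 against NIA and 77 against mNIA. Only Mrps18b among the 3 had UW libraries wholly below chow, and by edgeR with all 16 libraries none passed the adjusted threshold. Against NIA, DESeq2 and edgeR without NIA replicate 2 called Mrps18b lower in UW, and edgeR without the 4 libraries of low quality weight called Mrps18c in UW and in mNIA. Mrps30, also of the large subunit, averaged 40.7 ± 8.51 CPM in UW and 41.7 ± 5.92 in chow.

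The paired genes on chromosome 7 were of different abundance. NIA replicate 4 was the highest library for both, as it was for 74 of 78 members. Mrpl46 (chr7:78775341-78783090) measured 29.7 CPM per kb over 16 libraries and Mrps11 (chr7:78783131-78792989) 17.6. In NIA replicate 4 Mrpl46 reached 84.6 CPM and Mrps11 48.4, and in the others they ran from 25.1 to 38.6 and from 13.2 to 20.2 CPM. Both coordinates are on mm10, as the file gives them.

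Several members have uncertain counts. The file's gene spans put 11 members over another gene, 3 on the same strand and 8 on the opposite one, among them Mrpl43 with Twnk, the mitochondrial DNA helicase. Values were not whole in more than 8 libraries for 9 members (Mrpl19, Mrpl24, Mrpl35, Mrpl43, Mrpl48, Mrpl49, Mrps7, Mrps25 and Mrps27), which whole reads each given to 1 gene would not produce. How the counting used strand is not given in the sources used here.

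Genes that work with the mitoribosome differed by list. In NIA against chow the median log2 fold change was 0.42 over the 5 mitoribosomal proteins with other symbols, 0.16 over 24 assembly factors, 0.20 over 22 factors of mitochondrial DNA and RNA, 0.05 over 14 translation factors and -0.06 over 20 mitochondrial tRNA synthetases. It was 0.69 over 96 cytosolic ribosomal proteins and 0.62 over 84 nuclear respiratory chain genes. In UW against NIA the medians in that order were -0.85, -0.19, -0.11, -0.16 and -0.04, then -0.85 and -0.97. In NIA replicate 4 the lists stood at 1.17, 0.57, 0.74, 0.26 and 0.09, then 1.56 and 1.56. With that library left out the medians in NIA against chow were 0.11, 0.05, -0.01, 0.02 and -0.12, then 0.17 and 0.10. Regulators of mitochondrial biogenesis (13 genes) had medians of 0.04 and 0.10 in the 2 comparisons, and proteases with stress genes (17 genes) 0.07 and -0.03. The limma-voom fit turned the sign of 5 of these medians in NIA against chow: assembly factors to -0.12, DNA and RNA factors to -0.17, translation factors to -0.17, regulators to -0.07 and proteases to -0.25. In UW against NIA limma-voom turned 5 medians: assembly factors to 0.04, DNA and RNA factors to 0.22, translation factors to 0.20, synthetases to 0.13 and proteases to 0.38. Leaving out NIA replicate 4 turned 4 of them there, DNA and RNA factors to 0.17, translation factors to 0.08, synthetases to 0.07 and proteases to 0.10, and in NIA against chow it turned DNA and RNA factors and proteases (-0.08). By edgeR no gene of these lists passed the adjusted threshold in any of the 8 tests, and unadjusted p was under 0.05 in NIA against chow for 44 cytosolic ribosomal, 34 respiratory chain, 5 DNA and RNA factor, 4 assembly, 3 synthetase, 1 other-symbol, 1 protease, 0 translation factor and 0 regulator genes. Of all genes 8.7% had an unadjusted p under 0.05 by edgeR there. DESeq2 called 8 cytosolic ribosomal, 5 respiratory chain and 1 protease gene in NIA against chow, all higher (0.949% of all genes). The limma-voom fit with quality weights called none (0.209% of all genes). In UW against NIA DESeq2 called 2.8% of all genes and limma-voom 6.85%. The DESeq2 calls here were 22 cytosolic ribosomal, 36 respiratory chain, 2 other-symbol, 1 DNA and RNA factor and 1 protease gene, all lower in UW. The limma-voom calls were 15 cytosolic ribosomal, 12 respiratory chain, 1 other-symbol and 1 DNA and RNA factor gene, all lower. With them came 1 protease and 1 synthetase gene, higher in UW. In mNIA against NIA limma-voom called 14.8% of all genes. Among them were 27 of 96 cytosolic ribosomal and 12 of 84 respiratory chain genes, all but 1 of each lower in mNIA. The 1 other-symbol gene called was lower, and 3 translation factor, 3 of 20 synthetase and 1 assembly gene were higher. Also called were 7 protease genes, 5 of them higher, and 4 DNA and RNA factor genes, 3 of them higher.

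Single genes of these lists lay on both sides. Chchd1, a small-subunit protein, measured 55.4, 54.9, 54.4 and 56.4 CPM on chow, 58.7, 69.1, 75.8 and 318 on NIA, 46.4, 51.1, 46.7 and 41.0 on UW and 49.95, 79.7, 48.1 and 44.9 on mNIA. NIA was wholly above chow and UW wholly below it. Malsu1, the assembly factor that binds Mrpl14, had a log2 fold change of -1.22 in UW against NIA (SE 0.38, edgeR adjusted p = 0.189). Mrpl14 itself had -1.22, and the median over the 78 members was -0.66. Malsu1 measured 15.9, 17.6, 13.7 and 64.0 CPM in NIA replicates 1 to 4 and 10.6, 10.2, 12.3 and 11.1 in UW. NIA replicate 4 was the highest library for both genes, and whether the 2 move together was not tested. In the other direction Aars2, the alanyl-tRNA synthetase, measured 22.4, 23.1, 21.6 and 27.2 CPM in chow and 17.6, 16.1, 17.6 and 11.4 in NIA, with NIA wholly below chow (log2 fold change -0.56, SE 0.18, edgeR adjusted p = 0.418). Its values in NIA replicates 1 to 3 were below chow as well. In NIA against chow Hspe1, the partner of the mitochondrial chaperonin, had a log2 fold change of 1.498 (SE 0.43) and Slirp, which stabilises mitochondrial messenger RNA, 1.08 (SE 0.33). Hspe1 measured 186.6, 110.1, 106.1 and 661.4 CPM in NIA replicates 1 to 4 and from 77.3 to 100.1 in chow. Slirp measured 46.1, 44.1, 57.6 and 156.5 CPM in NIA and from 29.5 to 42.4 in chow. Every NIA library was above every chow library for both, with NIA replicate 4 by far the highest. In UW against chow Ddit3, a stress transcription factor, had a log2 fold change of -0.73 (SE 0.28). The edgeR adjusted p values of Hspe1, Slirp and Ddit3 in these comparisons were 0.368, 0.388 and 0.977.

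Some cell type markers also differed in NIA replicate 4. Its summed endothelial markers (8 of 8 in the file) measured 579.6 CPM against 1025 to 1498 in the other NIA libraries and 1035 to 2058 in the other diets, and its ventricular muscle markers 125200 CPM against 53300 to 106000 in the other NIA libraries. Leukocyte markers (7 of 7) summed to 37.7 CPM there, to 44.0 to 85.4 in the other NIA libraries and to 47.45 to 135.6 in the other diets. Fibroblast markers (7 of 7) were 1396 CPM there, 1138 to 1332 in the other NIA libraries and 888.2 to 1712 in the other diets. Smooth muscle and pericyte markers (7 of 7) were 1296 CPM there, 970.4 to 1155 in the other NIA libraries and 965.4 to 1326 in the other diets. Erythrocyte markers, at 5025 CPM, lay inside the range of the other NIA libraries (1881 to 7280). The part of cell makeup in the members' height there was not tested.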

How the data were processed

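Values in the deposited matrix are expected counts per gene, unscaled, as the values show. Per the submitters' processing notes the authors used BWA, DESeq2 and the mouse build mm10; the counting tool and gene models are not given in the sources used here. Expected counts were rounded and fitted with edgeR 4.0.16 (filterByExpr, TMM scaling, robust quasi-likelihood F tests, 1 fit of 16 libraries and 4 diets), with Benjamini-Hochberg adjustment over 13381 genes and a threshold of 0.05. CPM are TMM-scaled, and log2 CPM used a prior count of 2. Transcript length is the median over protein-coding transcripts of the GENCODE basic set. Total counts ranged from 2278250 to 63005490 per library. Each library is a separate animal.

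Members and gene lists were chosen with earlier results of these data known. Genes were named by a fixed rule: any member past the threshold, the 2 higher and 2 lower members with the smallest p per comparison, the first 6 of the joint test, the 4 highest and 4 lowest by CPM per kb, the 3 most and 3 least variable, 14 set genes, and 2 genes of each related list. Alternatives used DESeq2 1.42.0, limma 3.58.1 (voom with quality weights), other scalings and filters, a replicate block, removal of a length trend within each library, and libraries left out. Leaving out the 4 libraries of low quality weight follows weights computed from these data. The fit was also run on simulated counts that held no outlying library and no length trend, so that run cannot speak to NIA replicate 4. Which single leukocyte markers were at 0 is not reported here.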

Additional observations from a re-analysis of the deposited data

Results flagged for a closer look

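In groups of 4 libraries, single values stood apart from the other 3 by Dixon's test at the 95% level, which marks about 1 in 20 groups by chance. Over all 78 members 41 of 312 groups of libraries were marked, 23 of them for a high value in NIA replicate 4. These groups share the same 16 libraries, and the share of marked groups over all tested genes was not computed. In NIA replicate 4 all tested genes under 1 kb also stood high, at 1.12 on the log2 scale. Among the named members these NIA replicate 4 values were 462.3 CPM for Mrpl30, 303.7 for Mrps36, 290.2 for Mrpl33, 272.4 for Mrpl41, 196.3 for Mrpl3, 147.2 for Mrpl34, 141.5 for Mrpl32, 109.5 for Mrpl45, 98.15 for Mrpl9, 77.52 for Mrpl57 and 70.41 for Mrps10. The same library was high for the 24 mitoribosome assembly factors, at 0.5692 on the log2 scale.

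Chow replicate 3 was low for Mrpl45 (49.07 CPM), Mrpl9 (28.66 CPM) and Mrps2 (21.59 CPM). Its level was also low for mitochondrial translation factors (-0.5423), assembly factors (-0.2562) and proteases with stress genes (-0.6523). In mNIA replicate 2 Mrpl14 (65.81 CPM), Mrpl52 (24.86 CPM) and cytosolic ribosomal proteins (0.4684) were high, while regulators of biogenesis (-0.3308) and proteases with stress genes (-0.3227) were low. Mrpl35 was high in mNIA replicate 1 (55.87 CPM), Mrpl19 low in mNIA replicate 4 (41.04 CPM), Mrps34 high in UW replicate 2 (47.47 CPM) and the mitochondrial tRNA synthetases low in UW replicate 1 (-0.3198).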

How the results depend on the processing

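By edgeR the count of members past the threshold was 0 in all 8 tests, and it moved with the tool and the libraries. DESeq2 gave 2 of 78 in NIA against chow (0.949% of all genes) and 13 in UW against NIA (2.8%). The limma-voom fit gave 3 in UW against NIA, 2 in mNIA against NIA and 3 in the joint test. It called 6.85%, 14.8% and 14.8% of all genes there. Without the 4 libraries of low quality weight the same 3 tests gave 9, 13 and 5. All genes gave 11.8%, 23.1% and 9.97%. Leaving out single libraries gave 0 in the other tests and 0 to 4 in UW against NIA. The 4 came without NIA replicate 2 (1.61% of all genes). Median log2 fold changes in NIA against chow, UW against NIA and mNIA against NIA were 0.086, -0.26 and -0.11 by limma-voom, 0.046, -0.24 and -0.085 without the 4 libraries, and 0.20, -0.22 and -0.13 with the length trend removed. Leaving out single libraries gave 0.085 to 0.63, -0.81 to -0.25 and -0.61 to -0.071, the ends nearest 0 without NIA replicate 4. The cause was not tested. Of 188 medians under alternatives 182 kept their sign, and of 698 values of 26 gene results 670 kept direction and side of the threshold. Signs turned for Mrps5 in NIA against chow (0.032 with RLE scaling, 0.20 with the length trend removed, -0.12 to 0.11 without single libraries), and for Mrpl9 in UW against NIA (-0.013 with RLE scaling, -0.016 by DESeq2, -0.097 to 0.35). They also turned for Mrps2 in UW against NIA (-0.054 to 0.27) and Mrpl16 in mNIA against UW (-0.14 to 0.037). With the replicate number as a block 0 members passed in any test and the medians were 0.40, -0.61 and -0.41. The numbers did not pair the animals: 9 of 24 same-numbered pairs correlated above 0.1, and 4 of 16 libraries correlated best with their own number. Totals per library ran from 2278250 to 63005490 counts, and the effect of depth on these values was not tested.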
